A study of Mus musculus with 36 samples.

Results

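The Myc and Myb factors described here are 4 transcription factor genes, Myc, Mycn, Mycl and Myb, followed through 8 sorted populations of mouse blood and thymus progenitors. Their probe sets were chosen by name, as all those annotated to exactly 1 of the 4 genes. This gave 10 of the 34945 probe sets with a single gene, and 4 of the 18193 genes measured. Myc had 1 probe set, and Mycn, Mycl and Myb had 3 each. In tests over genes, each gene was represented by its brightest probe set on average: 1424942_a_at for Myc, 1425922_a_at for Mycn, 1422087_at for Mycl and 1421317_x_at for Myb.

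Myc, Mycn and Mycl encode the related proteins c-Myc, N-Myc and L-Myc. Each pairs with Max, binds the DNA letters CACGTG, known as the E-box, and activates genes for ribosome assembly, nucleotide synthesis, metabolism and cell division, while the Mxd proteins and Mnt compete for Max. In mouse marrow, Myc and Mycn are both active in stem cells, and removal of both genes together leads to the loss of blood cell production. Myb encodes c-Myb, which binds sites with the letters AACNG (N is any base) and is needed in the mouse for definitive blood formation and for early T and B cell development.

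The study profiled unmanipulated C57BL6 mice on 36 one-colour arrays. Haematopoietic stem cells (LSKFlt3-CD48-CD150+, HSC), the marrow cells LSKFlt3hi IL7R+ (LSK, labelled as progenitors that seed the thymus), early thymic progenitors with high Flt3 (ETPFlt3hi, ETP) and DN3 thymocytes had 6 arrays each, 3 in each of 2 deposit sets. DN2Kit+ thymocytes (DN2) had 3 arrays, all in set 1. Set 2 alone held 4 arrays of common lymphoid progenitors (CLP, which the labels call putative seeding cells), 2 of adult ETP and 3 of pro-B cells. The age label reads 1 week on all arrays, those titled adult included, and the sex label names both sexes. Arrays of set 1 are labelled as pools of several mice, and the series' design text calls the replicates biological. Array medians were 5.12 to 5.22 in set 1 and 5.84 to 5.95 in set 2, and the 2 sets were taken as normalized apart. Levels are therefore set against each other only within a set, and a level of one probe set is never set against that of another. All levels are log2 RMA values and all differences are log2 differences. Fitted differences come from all 36 arrays with a term for the set. For a population held in 1 set only, they can depart from the difference within that set. No detection calls or depths came with these values, and the number of arrays limits the precision.

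The populations were checked against marker genes, as the mean log2 value of each marker list on each array. Some lists hold genes named in the sort labels: Slamf1 (CD150) in the stem cell list, Flt3 and Il7r in the lymphoid progenitor list, Flt3 in the ETP list and Kit in the DN2 list. The means of those lists are not independent of the sort. The stem cell markers lay at 9.34 to 9.44 on HSC arrays of set 1, against 5.64 or lower on its other arrays. In set 2 they lay at 9.51 to 9.68, against 6.52 or lower. The DN3 markers lay at 11.85 to 12.29 on DN3 arrays of set 1, against 10.52 or lower on its other arrays. In set 2 they lay at 11.55 to 11.74, against 6.14 or lower. The pro-B markers lay at 11.29 to 11.49 on pro-B arrays, against 9.67 or lower on the other arrays of set 2. Granulocyte markers, 6 of 6 measured, stood apart on 9 arrays, each more than 2 above the lowest array of its set: 2 LSK and 1 HSC array of set 1, and 1 HSC, 2 CLP and all 3 pro-B arrays of set 2. In set 1 the mean of these markers ranged from 4.05 to 6.07 over HSC arrays and 4.33 to 7.72 over LSK arrays, against 3.87 to 4.27 over thymic arrays. In set 2 it ranged from 5.015 to 7.97 over HSC arrays and 4.795 to 6.07 over LSK arrays, against 4.98 to 5.30 over thymic arrays. The CLP arrays, all of set 2, ranged from 5.51 to 8.89 and the pro-B arrays from 6.80 to 8.06. The DN2 markers lay at 9.12 to 9.27 in DN2 and at 8.56 or lower elsewhere in set 1, the lymphoid progenitor markers were highest in LSK and CLP (10.47 to 10.64 in set 1, 11.08 to 11.73 in set 2), and the ETP markers were highest in ETP and adult ETP (8.69 to 9.002 in set 1, 9.48 to 9.68 in set 2). Results that touch these arrays are given with and without them where they change. Pro-B results have no value without them, as all 3 pro-B arrays are among the 9.

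**Figure D1:**
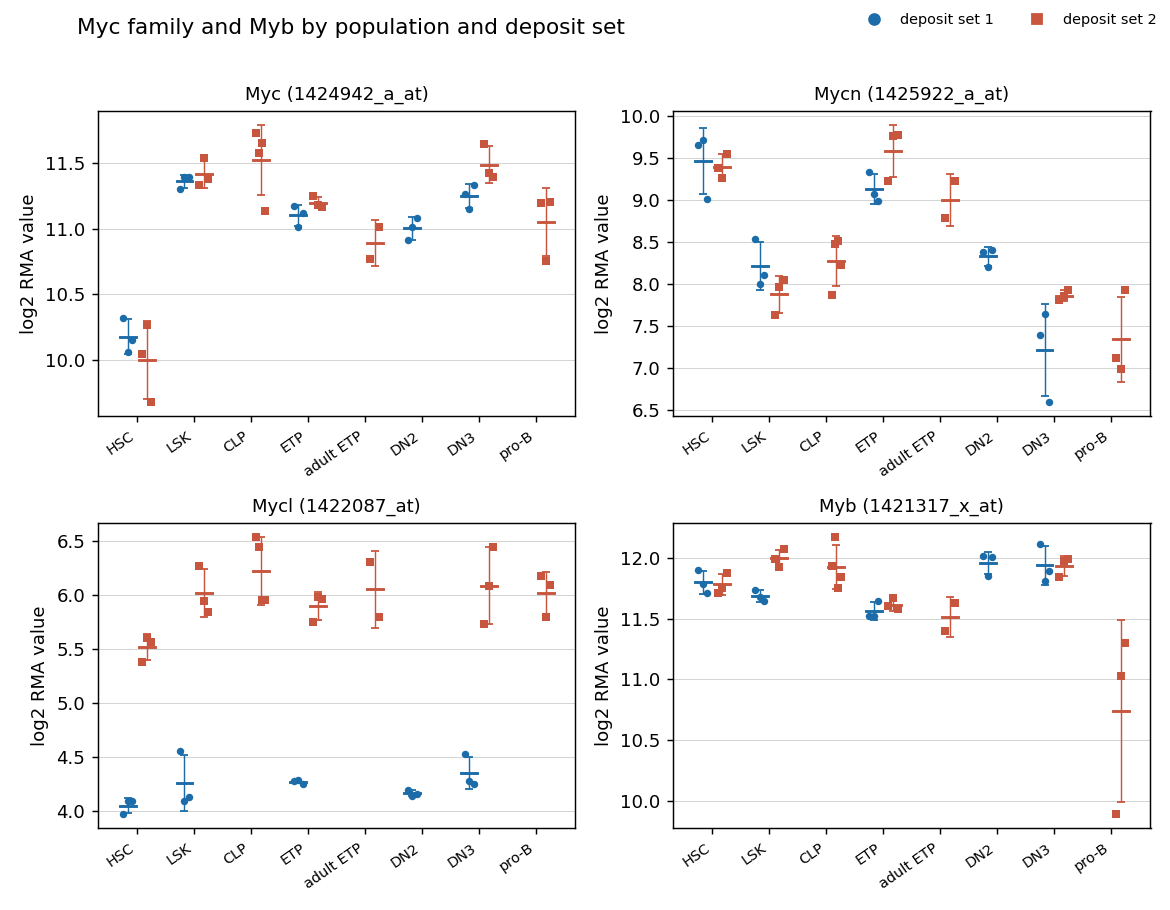
Log2 RMA value of the probe set standing for each member, by population (horizontal axis) and deposit set (blue circles, set 1; red squares, set 2); each point is 1 array, the short bar is the mean and the whiskers are 1 SD, and each panel has its own vertical range. Myc is lowest in HSC in both sets, Mycn is highest in HSC and ETP, and Myb is lowest in pro-B cells, where 1 array at 9.89 lies below the other 2 at 11.03 and 11.30.

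Of the 36 differences between populations tested for these genes, 4 genes in 9 comparisons, 6 were called, that is, had a Benjamini-Hochberg adjusted p under 0.05 over all genes and a size of at least 1, which is 2-fold. The share of all genes called ran from 0.209% (adult ETP against ETP) to 8.41% (LSK against HSC) over the comparisons. Myc was higher in LSK than in HSC. Mycn was lower in LSK than in HSC, higher in ETP than in LSK and lower in DN3 than in ETP. Myb was lower in pro-B cells than in CLP and, in the same way, higher in DN3 than in pro-B cells. Mycl had no called difference. Neighbouring comparisons share arrays (LSK, ETP, DN2, DN3, CLP and pro-B arrays each enter several), so their values stand side by side and are not independent. In sorted bulk samples, fewer cells expressing a gene and less RNA of it per cell cannot be told apart.

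**Figure D2:**
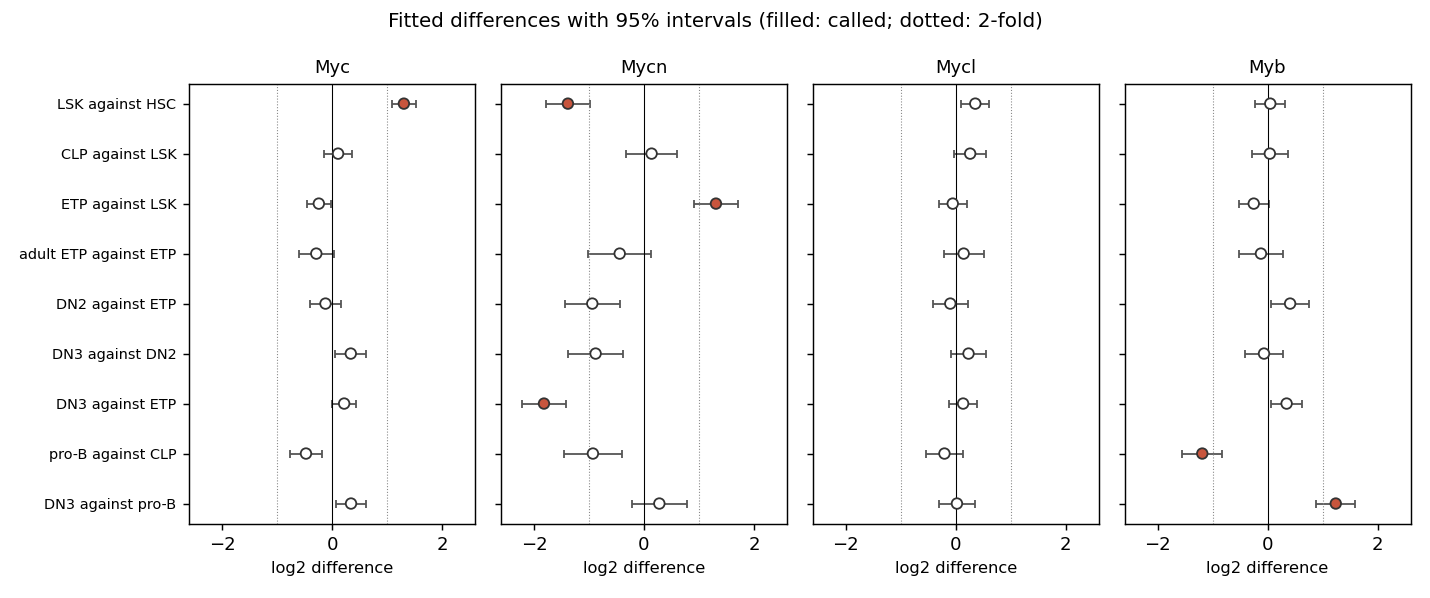
Fitted log2 differences (horizontal axis) of the 4 members in the 9 comparisons (rows), with 95% intervals; filled points were called and dotted lines mark a 2-fold difference. Filled points stand at 1.31 for Myc, at -1.38, 1.31 and -1.82 for Mycn, and at -1.19 and 1.24 for Myb.

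Myc, the general growth regulator of the family, was the member whose HSC arrays lay below those of every other population in their set. In set 1 its 3 arrays read 11.31, 11.39 and 11.39 in LSK, against 10.32, 10.06 and 10.15 in HSC. In set 2 they read 11.34, 11.54 and 11.38 in LSK, against 10.04, 10.27 and 9.68 in HSC. The lowest LSK array lay above the highest HSC array in both sets. The fitted difference was 1.31 ± 0.107 (SE; 95% interval 1.09 to 1.52), a 2.47-fold higher value in LSK (adjusted p = 2.08e-11), with 1.19 within set 1 and 1.42 within set 2. Of all genes, 8.41% were called in this comparison, 3.9% higher and 4.51% lower in LSK. Without the 9 arrays of high granulocyte markers the Myc difference was 1.42 (adjusted p = 6.41e-09).

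Beyond LSK, Myc stayed within a narrow band. Its CLP arrays read 11.73, 11.58, 11.66 and 11.14, and the same LSK arrays of set 2 reach from 11.34 to 11.54, so the groups overlapped (difference 0.11, 95% interval -0.15 to 0.36). ETP read 11.17, 11.01 and 11.12 in set 1 and 11.25, 11.18 and 11.17 in set 2. These values lay below every LSK array of the same set, but the fitted difference of -0.24 did not pass the test (adjusted p = 0.345). DN2 read 10.91, 11.01 and 11.08, overlapping the ETP arrays of set 1 (difference -0.12, adjusted p = 0.815). DN3 read 11.26, 11.15 and 11.33 in set 1 and 11.65, 11.42 and 11.40 in set 2, with a difference of 0.34 from DN2 (adjusted p = 0.142) and 0.22 from ETP (adjusted p = 0.18). Within set 1 the difference of DN3 from DN2 was 0.25. The 2 adult ETP arrays, at 10.77 and 11.01, lay below the 3 ETP arrays of their set, with a difference of -0.29 (95% interval -0.61 to 0.03; adjusted p = 0.383). The pro-B arrays, at 11.20, 10.75 and 11.21, gave the one further Myc difference with an adjusted p under 0.05, -0.47 ± 0.141 (SE) against CLP (adjusted p = 0.0174), smaller than 2-fold and with overlapping arrays. DN3 was 0.34 above pro-B cells (adjusted p = 0.066). Ordered by mean, Myc ran LSK, DN3, ETP, DN2, HSC in set 1 and CLP, DN3, LSK, ETP, pro-B, adult ETP, HSC in set 2. Neighbours whose arrays did not overlap were DN2 and HSC in set 1, and LSK and ETP, and adult ETP and HSC, in set 2; all other neighbours overlapped.

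Genes that Myc is known to activate had mostly positive differences in the same step as Myc itself, from HSC to LSK. Of 19 measured genes of the nucleolus and of ribosome assembly, all 19 had a positive difference, 18 with an adjusted p under 0.05, and their median was 0.61 against 0.01 over all genes. Their differences were small, and 1 of the 19 was called, Nolc1, a nucleolar chaperone (1.09 ± 0.215 SE, adjusted p = 0.000173). Within set 1 alone 9 had an adjusted p under 0.05, within set 2 alone 13, and without the arrays of high granulocyte markers 14, with 2 called; all 19 stayed positive in each. Nolc1 fell under 2-fold within set 1 (0.86) and under quantile normalization (0.99), where none of the 19 was called, and none was called without HSC replicate 6 either. The share of all genes with an adjusted p under 0.05 at any size is not given here. Counts at that threshold, in this and the later lists, therefore stand without a share over all genes. The same holds for counts at an unadjusted p under 0.05.

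Among 18 Myc targets of metabolism and growth, 5 were called higher in LSK than in HSC and none lower, where 3.9% of all genes were called higher. Of the 18, 15 had a positive difference, and the median was 0.76 against 0.01 over all genes. Tfrc, the transferrin receptor that brings iron into cells, was 1.70 ± 0.169 higher (SE, adjusted p = 1.46e-09). Its set means were 10.38 ± 0.209 in LSK and 9.17 ± 0.195 in HSC in set 1 and 10.55 ± 0.0922 in LSK and 8.35 ± 0.555 in HSC in set 2 (SD, n = 3 each). Shmt2, the mitochondrial serine hydroxymethyltransferase, was 1.21 higher (adjusted p = 1.34e-06), and Ppat, the first enzyme of purine synthesis, 1.12 higher (adjusted p = 1.26e-05), although Ppat was under 2-fold within set 2 alone (0.82) and as the mean of its probe sets (0.64). The other called genes of the list were Cad, the first enzyme of pyrimidine synthesis (1.07), and Nme1, a nucleoside diphosphate kinase (1.02), both named after their values were seen. The called count was 4 within set 1 and 7 within set 2, and 3 as the mean of probe sets or without HSC replicate 3 or 6, with a range of 3 to 7 over the arrays left out in turn. Of 5 genes that Myc is known to repress, 2 had a positive difference and 0 were called, where 8.41% of all genes were called. Their median was -0.04. Cdkn1a, the cell cycle inhibitor p21, was 0.87 higher in LSK (adjusted p = 0.0344), under 2-fold. It was called without HSC replicate 3 (1.1) or 4 (1.003).

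Markers of dividing cells moved in the same step. Of 12 measured cell division genes, 8 were called higher in LSK than in HSC, where 3.9% of all genes were called higher. All 12 had an adjusted p under 0.05 and the median was 1.64. The largest were Bub1 (2.62), Aurkb (2.14) and Top2a (1.86), kinases of the spindle checkpoint and of chromosome separation, and the DNA topoisomerase of dividing cells. Aurka, a mitotic kinase that binds and stabilises N-Myc protein, was 1.89 higher (adjusted p = 8.22e-11). Without the arrays of high granulocyte markers the count called was again 8. The part of cell division in the values of Myc and its targets was not tested.

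E-box letters were counted in the promoters of the Myc target lists, as given by RefSeq for build GRCm38.p6 (250 bases before to 50 after each start). CACGTG, which reads the same on both strands, occurred in at least 1 promoter entry of 5 of the 16 metabolism and growth genes with an entry (31.2%) and of 4 of the 16 nucleolar genes (25%), against 8.09% of all 27025 genes. These shares describe letters in 300 bases and not binding. Promoters of 3 of the metabolism genes are shown, chosen after their values were seen for how many E-boxes they hold and how differently the genes read, with CACGTG in capitals. Cdk4 (chr10:127063285-127063584, plus strand), the kinase of cell cycle entry, has 4 matches, 172, 118, 98 and 11 bases before the start. Nme1 (chr11:93968223-93968522, minus strand) has 1 match, 18 bases before the start. Ldha (chr7:46845554-46845853, plus strand), lactate dehydrogenase, has 2 matches, 145 and 48 bases before the start. Nme1 has a second entry, also with 1 match, and Ldha a second one with none; the more upstream entry of each is shown.
Cdk4: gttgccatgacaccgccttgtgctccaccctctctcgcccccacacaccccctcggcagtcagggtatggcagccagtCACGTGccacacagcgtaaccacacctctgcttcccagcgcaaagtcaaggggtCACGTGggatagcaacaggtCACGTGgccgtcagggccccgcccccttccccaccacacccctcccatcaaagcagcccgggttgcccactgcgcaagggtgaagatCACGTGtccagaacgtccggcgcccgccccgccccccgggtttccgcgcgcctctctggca
Nme1: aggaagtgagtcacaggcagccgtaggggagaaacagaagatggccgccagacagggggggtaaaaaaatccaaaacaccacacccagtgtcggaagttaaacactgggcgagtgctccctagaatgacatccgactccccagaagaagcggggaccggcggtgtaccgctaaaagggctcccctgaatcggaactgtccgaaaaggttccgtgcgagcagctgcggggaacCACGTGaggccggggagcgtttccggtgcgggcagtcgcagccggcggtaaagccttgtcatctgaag
Ldha: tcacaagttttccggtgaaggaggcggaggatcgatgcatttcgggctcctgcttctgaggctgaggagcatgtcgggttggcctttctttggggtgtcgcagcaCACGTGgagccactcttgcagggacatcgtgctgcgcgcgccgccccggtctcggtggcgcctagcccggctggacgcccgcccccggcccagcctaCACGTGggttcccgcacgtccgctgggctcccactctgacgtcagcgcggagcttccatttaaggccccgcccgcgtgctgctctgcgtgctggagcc
From HSC to LSK, Nme1 averaged 10.63 ± 0.0178 in LSK and 9.69 ± 0.326 in HSC in set 1 and was called (1.02, adjusted p = 1.76e-10). Cdk4 averaged 10.97 ± 0.102 in LSK and 10.14 ± 0.129 in HSC in set 1 (SD, n = 3 each) and was 0.94 higher over both sets (adjusted p = 2.04e-07), just under 2-fold. Ldha differed by 0.12 (adjusted p = 0.365). None of the promoters of Mycn, Mycl and Myb holds CACGTG in this window.

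**Figure D3:**
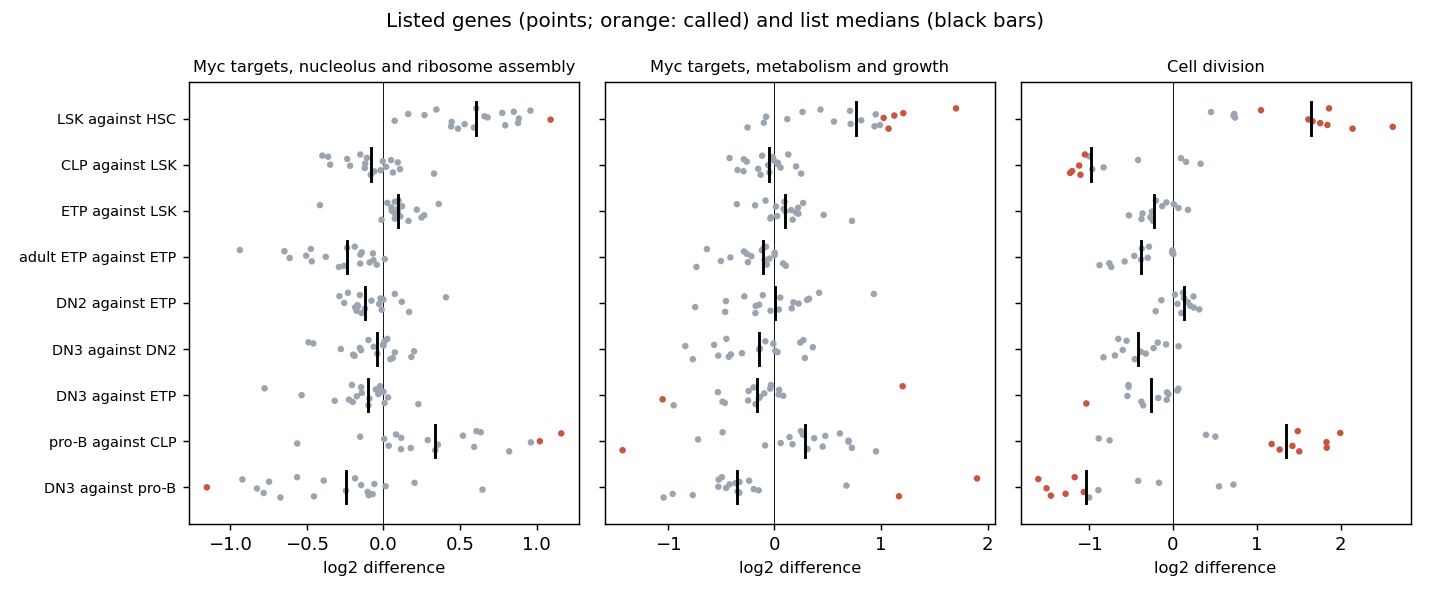
Log2 difference (horizontal axis) of each measured gene of 3 lists in the 9 comparisons (rows): Myc targets of the nucleolus (19 genes), Myc targets of metabolism and growth (18) and cell division genes (12); grey points were not called, orange points were called, and black bars are list medians. From HSC to LSK all nucleolar points lie right of 0 with a median of 0.61, and the cell division genes have a median of 1.64.

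Mycn, which encodes N-Myc, ran the other way from Myc between HSC and LSK and then came back in the thymus. Its main probe set read 8.54, 7.995 and 8.10 in LSK, against 9.66, 9.71 and 9.01 in HSC in set 1. In set 2 it read 7.63, 7.96 and 8.04 in LSK, against 9.38, 9.26 and 9.55 in HSC. No LSK array reached an HSC array of its set. The fitted difference was -1.38 ± 0.194 (SE; 95% interval -1.78 to -0.99), a 2.61-fold lower value in LSK (adjusted p = 1.12e-06), with -1.25 within set 1 and -1.52 within set 2. Without the arrays of high granulocyte markers it was -1.59.

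In ETP, the first population in the thymus, Mycn read 9.33, 9.06 and 8.99 in set 1, against the 8.54, 7.995 and 8.10 of LSK, and 9.22, 9.76 and 9.77 in set 2, against the 7.63, 7.96 and 8.04 of LSK. All ETP arrays lay above all LSK arrays of their set, at about the level of HSC, whose arrays overlapped with ETP in both sets. Mycn was 1.31 ± 0.194 (SE) higher in ETP than in LSK, or 2.48-fold (adjusted p = 1.97e-05), in a comparison in which 1.67% of all genes were called and 0.764% called higher. The difference was 0.92 within set 1, where it was not called (adjusted p = 0.115), and 1.70 within set 2. The difference between the sets, 0.79 ± 0.350 (SE), did not pass the test over all genes (limma, adjusted p = 1.00).

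Mycn was lower again at later thymic stages. DN2 read 8.38, 8.20 and 8.41, below every ETP array of set 1, a difference of -0.94 ± 0.248 (SE, adjusted p = 0.017), which was under 2-fold and so not called, where 3.09% of all genes were. DN3 read 7.40, 7.65 and 6.60 in set 1, below every DN2 array. The difference was -0.88 in the fit of both sets (adjusted p = 0.0278), also under 2-fold, where 2.34% of all genes were called. Within set 1 alone it was -1.12 and was called (adjusted p = 0.0263). In set 2 DN3 read 7.81, 7.85 and 7.93, against 9.22, 9.76 and 9.77 in ETP. Over both steps Mycn fell to a 3.52-fold lower value in DN3 than in ETP (-1.82 ± 0.194 SE, adjusted p = 7.91e-09), with -1.92 within set 1 and -1.72 within set 2. In this comparison 5.9% of all genes were called, 3.72% lower. The 2 adult ETP arrays, at 8.79 and 9.221, lay below the 3 ETP arrays of their set, of which the lowest read 9.223, a difference of -0.44 with a 95% interval of -1.02 to 0.14 (adjusted p = 0.477). Within set 2 that difference was -0.58. CLP read 7.87, 8.48, 8.51 and 8.23, overlapping LSK (0.14 in the fit, 95% interval -0.33 to 0.60, and 0.39 within set 2).

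The second Mycn probe set, 1417155_at, gave the same directions and larger differences in the comparisons given above. It read 8.50, 8.04 and 7.24 in LSK, against 10.002, 9.23 and 9.28 in HSC in set 1, and 8.05, 7.86 and 7.75 in LSK, against 10.24, 9.76 and 10.36 in HSC in set 2. ETP read 9.83, 10.06 and 9.86 in set 1 and 10.54, 10.49 and 10.54 in set 2, DN2 read 8.60, 8.48 and 8.87, and DN3 read 6.94, 6.65 and 6.79 in set 1 and 7.37, 7.51 and 6.90 in set 2. In set 1 these 3 thymic stages did not overlap. The order of ETP and HSC differed between the probe sets. On 1417155_at ETP averaged 0.41 above HSC in each set, and their arrays did not overlap in set 2. On the main probe set HSC averaged 0.33 above ETP in set 1 and ETP 0.19 above HSC in set 2. In a fit with every probe set as a feature, 1417155_at gave -1.91 in LSK against HSC (adjusted p = 4.73e-09), 2.31 in ETP against LSK (adjusted p = 7.31e-10), -1.36 in DN2 against ETP (adjusted p = 0.000451), -1.83 in DN3 against DN2 (adjusted p = 8.84e-06) and -3.19 in DN3 against ETP (adjusted p = 3.51e-14). All 5 were called. Of all probe sets, 8.01% were called in the first of these comparisons, 1.49% in the second, 2.78% in the third, 2.07% in the fourth and 5.4% in the fifth. So in the fit of both sets the steps from ETP to DN2 and from DN2 to DN3 passed the 2-fold limit on 1 Mycn probe set and not on the other. Within set 1 alone, which holds all DN2 arrays, the main probe set passed it from DN2 to DN3 (-1.12) and not from ETP to DN2 (-0.80).

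The probe sets of Mycn disagreed most in pro-B cells. On 1417155_at the pro-B arrays read 4.36, 4.25 and 4.07, against 7.56, 8.24, 9.03 and 8.58 in CLP, a difference of -4.13 ± 0.263 (SE, adjusted p = 8.89e-13). The DN3 arrays of set 2, at 7.37, 7.51 and 6.90, stood 3.01 above pro-B cells in the fit (adjusted p = 7.79e-11). Of all probe sets, 5.54% were called between pro-B cells and CLP and 8.12% between DN3 and pro-B cells. On 1425922_a_at the pro-B arrays read 7.12, 6.99 and 7.92, overlapping CLP (-0.93, adjusted p = 0.0106, under 2-fold) and DN3 (0.28 for DN3 against pro-B in the fit, adjusted p = 0.463, and 0.52 within set 2). How low Mycn is in pro-B cells therefore depends on the probe set. The third, 1425923_at, lay between 4.12 and 5.77 on all arrays, with population means within 0.36 of each other in each set, and had no called difference.

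**Figure D4:**
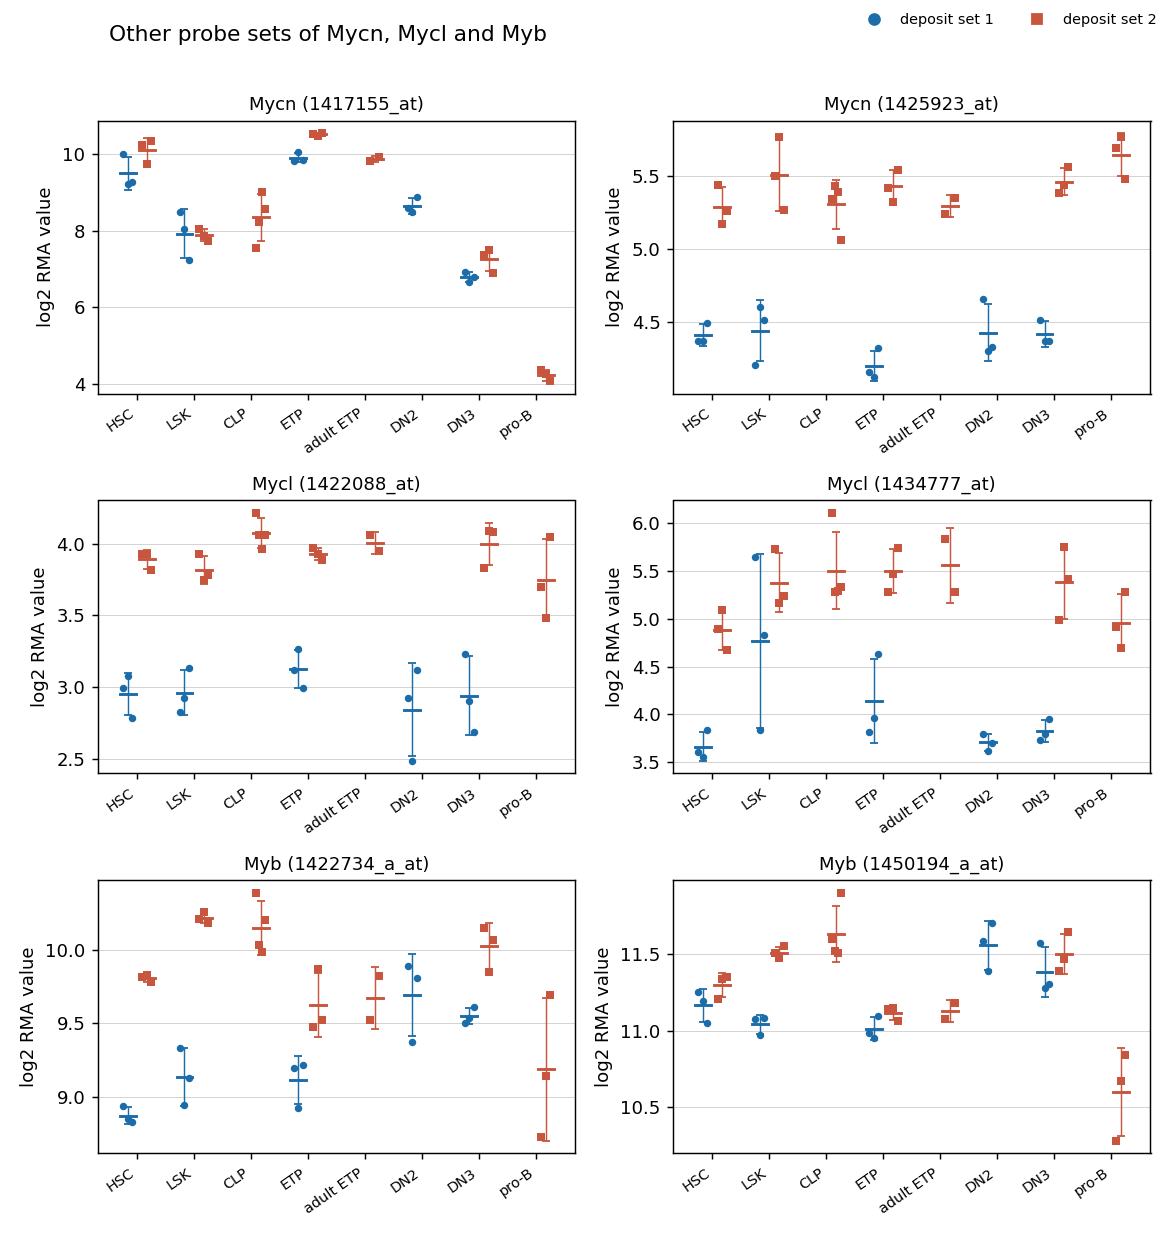
Log2 RMA values of the 6 probe sets of Mycn, Mycl and Myb that did not stand for their gene, by population (horizontal axis) and deposit set (blue circles, set 1; red squares, set 2); each point is 1 array, the short bar is the mean and the whiskers are 1 SD, and each panel has its own vertical range. Mycn 1417155_at spans the widest range, with pro-B arrays at 4.07 to 4.36, while Mycn 1425923_at is flat and both Myb panels are lowest in pro-B cells within set 2.

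Ordered by the mean of its main probe set, Mycn ran HSC, ETP, DN2, LSK, DN3 in set 1 and ETP, HSC, adult ETP, CLP, LSK, DN3, pro-B in set 2. The neighbours HSC and ETP overlapped in both sets, as did DN2 and LSK in set 1 and CLP, LSK, DN3 and pro-B, each with the next, in set 2.

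Mycl, which encodes L-Myc, known in mice for its place in dendritic cells, gave no called difference on any of its 3 probe sets. The main probe set lay between 3.97 and 4.55 on all arrays of set 1 and between 5.38 and 6.54 on all arrays of set 2, the sets being taken as normalized apart, and near or below the array medians of 5.12 to 5.22 and 5.84 to 5.95. It averaged 4.26 ± 0.257 in LSK, against 4.05 ± 0.0702 in HSC in set 1, and 6.02 ± 0.224 in LSK against 5.52 ± 0.121 in HSC in set 2 (SD, n = 3 each). The fitted difference, 0.36 ± 0.123 (SE, adjusted p = 0.0294), was under 2-fold. In the other 8 comparisons the fitted differences ran from -0.20 (pro-B against CLP) to 0.26 (CLP against LSK), with adjusted p-values of 0.408 or higher. The 5 dendritic cell markers were at 5.02 to 6.26 on all arrays.

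A second Mycl probe set, 1434777_at, varied more among arrays of one population. In set 1 it read 5.64, 3.83 and 4.83 in LSK, 3.81, 3.97 and 4.63 in ETP and 3.60, 3.55 and 3.83 in HSC. The 3 LSK arrays had granulocyte marker means of 7.72, 4.33 and 6.57 in the same order, so the highest Mycl value and the highest marker value fell on the same array. In CLP it read 6.11, 5.28, 5.29 and 5.33, with granulocyte marker means of 8.89, 7.47, 6.29 and 5.51. The part of such cells in these values was not tested. LSK was 0.80 above HSC on this probe set (adjusted p = 0.00683), under 2-fold. The third, 1422088_at, stayed between 2.48 and 4.22 with population means within 0.33 of each other in each set.

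Myb, which encodes c-Myb, varied little outside pro-B cells. Its main probe set ranged from 11.40 to 12.17 over all arrays other than pro-B. In the thymus, means ran from 11.56 ± 0.0713 in ETP over 11.96 ± 0.0928 in DN2 to 11.94 ± 0.16 in DN3 in set 1 (SD, n = 3 each). All DN2 and DN3 arrays lay above all ETP arrays of set 1, but the differences of 0.41 (DN2 against ETP, adjusted p = 0.233) and 0.35 (DN3 against ETP, adjusted p = 0.0801) did not pass the test. On the other Myb probe sets the DN2 difference had a smaller adjusted p, 0.69 on 1422734_a_at (adjusted p = 0.0118) and 0.60 on 1450194_a_at (adjusted p = 0.00146), both under 2-fold. LSK against HSC gave 0.05 in the fit (-0.11 within set 1 and 0.21 within set 2), ETP against LSK -0.25 (95% interval -0.53 to 0.03), adult ETP against ETP -0.12, DN3 against DN2 -0.06, and CLP against LSK 0.04 in the fit (95% interval -0.28 to 0.37). By mean, Myb ran DN2, DN3, HSC, LSK, ETP in set 1 and LSK, DN3, CLP, HSC, ETP, adult ETP, pro-B in set 2, where HSC and ETP, and adult ETP and pro-B cells, did not overlap; all other neighbours did.

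In pro-B cells Myb read 9.89, 11.03 and 11.30, against 11.93, 12.17, 11.75 and 11.84 in CLP. No pro-B array reached a CLP array. The difference was -1.19 ± 0.179 (SE; 95% interval -1.55 to -0.82), or 2.27-fold lower (adjusted p = 1.2e-05), among 5.85% of all genes called, 2.52% lower. Against the same pro-B arrays, the DN3 arrays of set 2 read 11.84 to 11.99, and DN3 was 1.24 ± 0.172 (SE) higher, or 2.36-fold (adjusted p = 1.64e-06), where 8.27% of all genes were called and 3.23% called higher. The first pro-B array decided the 2-fold size. Without it, the differences were -0.76 (pro-B against CLP, adjusted p = 6.87e-05) and 0.82 (DN3 against pro-B, adjusted p = 7.57e-06), of the same direction and under 2-fold. That array had a macrophage marker mean of 6.08 (5 of 5 markers measured), against 5.06 and 5.38 on the other pro-B arrays and 4.43 to 4.82 on the CLP arrays. Its granulocyte marker mean was also the highest, 8.06, against 7.74 and 6.80 on the other pro-B arrays, the reverse of the order of their Myb values. The part of such cells in the Myb values was not tested.

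The other Myb probe sets were also lowest in pro-B cells. Probe set 1450194_a_at read 10.28, 10.67 and 10.84 in pro-B cells, against 11.51 to 11.91 in CLP (-1.04, adjusted p = 4.59e-07), and was called. On 1422734_a_at the pro-B arrays read 8.73, 9.15 and 9.69, against 9.98 to 10.39 in CLP (-0.96, adjusted p = 0.000279), just under 2-fold. DN3 was 0.95 above pro-B cells on 1450194_a_at (adjusted p = 4.58e-07) and 0.97 on 1422734_a_at (adjusted p = 8.49e-05), both just under 2-fold. The call of DN3 against pro-B cells was therefore made on the main Myb probe set alone.

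The other genes of these pathways are given by list, in the order of the steps. From LSK to CLP, where 0.33% of all genes were called, no member and no Myc target was called, while 5 of 12 cell division genes were lower in CLP, among them Bub1 (-1.22), Ccna2, cyclin A (-1.20), and Cdk1, the mitotic kinase (-1.12). Over the arrays left out in turn 3 to 5 were called, with 3 without CLP replicate 2, where Cdk1 was -0.90. Bub1 was not called within set 2 alone (adjusted p = 0.165) or without CLP replicate 1 (0.0903) or 3 (0.0612). Aurka was lower too (-1.68, adjusted p = 2.21e-06), though under 2-fold as the mean of its probe sets (-0.85); it was the one called of 6 genes of Myc and Myb protein turnover, here and in 3 other comparisons. Without the arrays of high granulocyte markers 1 of the 12 was called, with a list median of -0.90 in place of -0.98.

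From LSK to ETP, Mycn was higher and Myc was not called, and 1.67% of all genes were called. None of the measured Myc targets of either list was called by limma (unadjusted p under 0.05 for 2 of 19 nucleolar and 4 of 18 metabolic targets). The nucleolar targets had a median of 0.09 and those of metabolism 0.10, against 0.01 over all genes. The 5 genes that Myc is known to repress split. Cdkn1a, the cell cycle inhibitor p21, fell to 6.50 ± 0.831 in ETP, against 9.74 ± 0.64 in LSK in set 1, and to 6.36 ± 0.134 in ETP, against 9.54 ± 0.202 in LSK in set 2 (SD, n = 3 each; -3.20, adjusted p = 7.73e-09). Ndrg1, a stress-responsive gene named for its repression by N-Myc, rose by 1.29 (adjusted p = 0.00766). Its value was not called within set 2 alone (0.94), as the mean of its probe sets (0.68) or with no set term (1.29, adjusted p = 0.0556).

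From ETP to DN2, Cdkn1a was higher by 2.62 (adjusted p = 1.67e-05) and Ndrg1 by 1.79 (adjusted p = 0.00233, and 0.0837 with no set term), and no Myc target was called (unadjusted p under 0.05 for 0 of 19 nucleolar and 4 of 18 metabolic targets). Of all genes, 3.09% were called in this step. From DN2 to DN3, where 2.34% of all genes were called, again no Myc target was called (unadjusted p under 0.05 for 1 of 19 and 6 of 18). Mxi1, an antagonist that competes for Max, had a difference of 0.60 (adjusted p = 0.0346) and Ppat one of -0.84 (adjusted p = 0.0264), both under 2-fold. Over both steps, 5.9% of all genes were called between DN3 and ETP. Among them were 2 Myc targets, Tert, the telomerase subunit (1.20 higher, adjusted p = 0.00113), and Hk2, a hexokinase of glycolysis (-1.05, adjusted p = 9.61e-05). With these, 5 of 18 metabolic and 3 of 19 nucleolar targets had an adjusted p under 0.05, and the medians were -0.16 and -0.10, against 0.05 over all genes. Tert was under 2-fold in set 1 (0.93) and as the mean of its probe sets (0.80), and Hk2 in set 2 (-0.86), under quantile normalization (-0.96) and without DN3 replicate 1 (-0.85). Cdkn1a was 2.64 and Ndrg1 2.09 higher in DN3 than in ETP, and of 12 cell division genes 1 was called, Bub1 (-1.03). No member and no listed gene was called between adult ETP and ETP, where 0.209% of all genes were called; 0 of the 4 members had an unadjusted p under 0.05 in limma.

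Pro-B cells had mostly positive differences of the nucleolar Myc targets from CLP, where that of Myc itself was -0.47. Of all genes, 5.85% were called in this comparison. Of the nucleolar list, 17 of 19 targets had a positive difference, 9 had an adjusted p under 0.05 and 2 were called, Rrp12 (1.16, adjusted p = 0.000919) and Nop16 (1.02, adjusted p = 0.000278), factors of ribosome assembly. Nop16 was under 2-fold with quantile normalization (0.85) and when its probe sets were averaged (0.62, adjusted p = 0.0581). Without CLP replicate 2 neither was called. Without the first pro-B array none was called, 5 had an adjusted p under 0.05 and the median was 0.24 in place of 0.34. Ccnd2, the G1 cyclin D2, was lower (-1.43, adjusted p = 9.24e-08), and so was Mxd4, an antagonist that competes for Max (-1.14, adjusted p = 0.00811), though both were under 2-fold as the mean of their probe sets (-0.84 and -0.43). Of the 12 cell division genes 8 were called higher, with a median of 1.35, led by Plk1 (1.99), Ccna2 (1.83) and Cdk1 (1.83), and Aurka was 1.98 higher. All 12 had an adjusted p under 0.05, but only 10 had a positive difference. The others were lower in pro-B cells, and up to 2 were called lower when single arrays were left out. Cdkn1b, the inhibitor p27, was higher as well (1.29, adjusted p = 0.000409), with 0.74 as the mean of its probe sets. Quantile normalization turned the split of all calls here from 605 higher and 459 lower to 454 higher and 553 lower.

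Between DN3 and pro-B cells most Myc targets had negative differences, 15 of 18 metabolic ones (median -0.36, 8 with an adjusted p under 0.05) and 16 of 19 nucleolar ones (median -0.24, 8 with an adjusted p under 0.05), against a median of -0.04 over all genes. Of all genes, 8.27% were called in this comparison. The targets called were 2 metabolic ones higher in DN3, Tert (1.90) and Ccnd2 (1.17), and 1 nucleolar one lower, Nop16 (-1.15). As the mean of their probe sets Ccnd2 (0.36) and Nop16 (-0.83) were under 2-fold, and so was Mxd4 (0.51), described next. Ndrg1 was 4.15 higher in DN3 (adjusted p = 4.81e-10), with set 2 means of 10.26 ± 0.518 in DN3 and 6.47 ± 0.512 in pro-B cells (SD, n = 3 each). Of the same 5 genes that Myc is known to repress, 4 had negative differences, and Gadd45a, a growth arrest gene, was called lower (-1.13, adjusted p = 0.0119), though not without the first pro-B array (-0.95, adjusted p = 0.0916). Of the 10 Myc partners and antagonists, Mxd4 was higher (1.24) and Mlxip, a glucose-sensing member of the network, lower (-1.49); none was called in the comparisons other than this one and pro-B against CLP. Among cell division genes, 6 of 12 were called lower, led by Plk1 (-1.60), Cdk1 (-1.50) and Bub1 (-1.45), and Aurka was -1.14. In the same list 2 of 12 had a positive difference, and up to 2 were called higher when single arrays were left out. Under quantile normalization the calls split into 694 higher and 718 lower, in place of 587 higher and 918 lower.

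Several known Myb targets were called in steps where Myb was not. Of the 9 measured, 4 were called higher in LSK than in HSC, where 8.41% of all genes were called. The largest were Il7r, the interleukin 7 receptor used in the LSK sort (7.06), Rag2, of antigen receptor recombination (5.28), and the granule enzyme Mpo (5.11). Another 2 were called lower, Kit (-1.17) and Gfi1, a transcriptional repressor that acts in granulocyte and lymphoid development (-1.57). In ETP, where 1.67% of all genes were called, Ebf1, the B lineage factor (-3.77), Il7r (-1.84) and Rag2 (-1.53) were lower than in LSK and Gata3, a regulator of T cell commitment, higher (1.16); Rag2 was not called within either set alone or with no set term, and Gata3, named after its value was seen, not within set 1 alone, with genes of low mean filtered out or without the arrays of high granulocyte markers. In DN2, where 3.09% were called, Gata3 (2.18), Il7r (2.07) and the survival gene Bcl2 (1.63) were higher than in ETP and Mpo lower (-2.78, adjusted p = 0.0389), the last not called within set 1 alone (adjusted p = 0.156), with a replicate block (adjusted p = 0.0527), or when any of the DN2 arrays or ETP replicate 1, 2, 3 or 4 was left out. In DN3, Mpo (-3.38, not called within set 1 alone, adjusted p = 0.0607) and Kit, the stem cell factor receptor that is also in the DN2 sort (-1.83), were lower than in DN2, where 2.34% were called, and Kit was not called with no set term (adjusted p = 0.059). Against ETP, where 5.9% were called, DN3 had 2 called lower, Mpo (-6.16) and Kit (-2.63), and 3 called higher, among them Rag2 (1.62, not called within set 2 alone, adjusted p = 0.0652). In pro-B cells, where Myb was lowest, Mpo (-5.00) and Kit (-1.39) were lower than in CLP and Ebf1 higher (1.84), where 5.85% were called. In DN3, Ebf1 was lower than in pro-B cells (-5.08), and 3 targets were called higher, among them Gata3 (2.64) and Gfi1 (1.06, under 2-fold within set 2 alone), where 8.27% were called. AACNG occurs in at least 1 promoter entry of 9 of the 10 listed genes (90%), against 82.4% of all genes. The Myb relatives Mybl1 and Mybl2 and the coactivators Crebbp and Ep300 had no called difference in any of the 9 comparisons.

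Across the 12 population means of both sets, each set centred on its mean over HSC, LSK, ETP and DN3, the pattern of Myc was most like that of Satb1 (Pearson r = 0.95), Adpgk (0.95), Dntt (0.93), Rasal3 (0.93) and Heatr1 (0.93), among 3069 genes with a span of at least 1 in each set. Most opposite were Klf12, Ccdc112 and Atxn7 (each -0.95). Mycn was most like Samd9l (0.97), Angpt1 (0.95), Pla2g4a (0.95), Rsad2 (0.95) and Osbpl1a (0.94), and most opposite to Uaca (-0.95), Cracdl (-0.95) and Sh3kbp1 (-0.93). Among the members, Myc and Mycn had r = -0.60, Mycl and Myc 0.85, and Myb between -0.10 and 0.12 with the others. Mycl and Myb spanned less than 1 in at least 1 set, so their likeness to other genes rests on small differences: the closest were Dntt (0.86) for Mycl and Cd96 (0.90) for Myb. These are descriptions over 12 means that share arrays within a population and a normalization within a set.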

How the data were processed

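RNA from sorted cells was extracted with Trizol, amplified and biotin-labelled with NuGEN kits, per the labels' protocols. The deposited table holds RMA expression values, background-corrected, normalized between arrays and summarised per probe set, per the submitters' processing notes. The authors give no log base in the sources used here; the deposited values behave as log2 and were read so. The labels fall into 2 styles, taken as deposit sets 1 (15 arrays) and 2 (21 arrays), whose array medians differ. That the sets were normalized apart was inferred from these styles and medians. Of 45101 probe sets, 64 are controls, 34945 have exactly 1 gene in the annotation used here, 932 have several and 9160 none listed; 204 found no match in the current gene table and kept their symbol. The 1 unnumbered CLP array was counted as CLP replicate 4.

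The test was limma (version 3.58.1, R 4.3.3; lmFit and eBayes), with terms for population and set, fitted to the 36 arrays together, with Benjamini-Hochberg adjustment over 18193 genes, and the members' probe sets in the same model over all 34945. The fit was first tested on simulated data with known changes. Tables, promoter counts and plots were made with pandas 2.3.3, numpy 2.4.6 and matplotlib 3.10.9 (Python 3.11.15). Alternatives were single sets, no set term, mean of probe sets, quantile normalization, a filter on low means, a replicate block, leaving out each array and, added after the data were seen, leaving out the arrays of high granulocyte markers.

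The members and the gene lists were chosen with earlier results of these data known. The rule for names took every member and, of each list, up to 3 called genes by size of difference (the smallest p where nothing was called, mostly given here as a count); other names are examples of a count. Of 87 listed pathway genes 84 were measured; the others were not analysed here.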

Additional observations from a re-analysis of the deposited data

Results flagged for a closer look

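Among 50 groups of 4 to 6 arrays checked for a single array far from the others, 3 were picked out by Dixon's test at the 95% level; chance picks about 1 in 20. In populations with arrays in both sets the shift between the sets was removed first. The main probe set of Mycl, 1422087_at, was lowest in ETP replicate 4, at 5.75. Mycl probe set 1434777_at was highest in CLP replicate 1, at 6.11, the CLP array that also has the highest granulocyte marker mean, 8.89. The main probe set of Mycn, 1425922_a_at, was lowest in DN3 replicate 3, at 6.60; without that array the fall of Mycn in DN3 against ETP remained called, at -1.64.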

How the results depend on the processing

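Of 261 values and counts recomputed for the members under the planned settings other than leaving out arrays, 195 of the members' differences and 51 of the counts of called genes kept their direction and side of the threshold. Members' differences that were not called changed sign: Myb in LSK against HSC (-0.11 with set 1 only, -0.0084 with quantile normalization), Myc in CLP against LSK (-0.030 without the arrays of high granulocyte markers), Myb in CLP against LSK (-0.070 with set 2 only, -0.14 without those arrays), Mycl in ETP against LSK (0.013 with set 1 only), Mycl in DN3 against ETP (-0.044 as the mean of probe sets) and Mycl in DN3 against pro-B (-0.80 with no set term), and of the listed genes Ebf1 in CLP against LSK, also not called (0.17 with no set term, in place of -0.49). Mycn in ETP against LSK was no longer called with set 1 only (0.92). Mycn became called in DN2 against ETP with no set term (-1.03), in DN3 against DN2 with set 1 only (-1.12), in pro-B against CLP as the mean of probe sets (-1.57) and with quantile normalization (-1.03), and in DN3 against pro-B as the mean of probe sets (1.04). With no set term 38 genes were called in CLP against LSK and 14 in adult ETP against ETP (in place of 60 and 38), and with set 2 only 13 in adult ETP against ETP. The causes were not tested.

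Leaving out each array in turn moved Mycn from -1.01 to -0.87 in DN2 against ETP and from -1.22 to -0.75 in pro-B against CLP, Myb from -1.47 to -0.76 in pro-B against CLP and from 0.82 to 1.52 in DN3 against pro-B, Myb from -0.040 to 0.099 in CLP against LSK, and Mycl from -0.10 to 0.011 in ETP against LSK, from -0.11 to 0.40 in adult ETP against ETP and from -0.090 to 0.11 in DN3 against pro-B. The genes called in adult ETP against ETP ran from 6 to 40, with 6 without adult ETP replicate 1. The filter on low means turned the calls in LSK against HSC to 620 higher and 402 lower, in place of 710 and 820.

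Same-numbered arrays did not deviate together (r from -0.189 to 0.107 over 27 pairs), so the numbers were not read as pairs. A replicate block left the Myc difference of LSK against HSC at 1.31 and that of Mycn at -1.38, and changed no member's call in the 6 comparisons with shared numbers. No paired fit was possible for CLP against LSK, adult ETP against ETP and DN3 against pro-B because they share no numbers within a set, and all pro-B arrays have high granulocyte markers, so their comparisons gave no value without such arrays.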
